A study of Mus musculus with 6 samples.

Results

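The Notch receptors Notch1, Notch2, Notch3 and Notch4, the ligands Jag1, Jag2 and Dll1 and the target genes Hes1, Hey1 and Heyl were followed on 6 Affymetrix MoGene-1_0-st arrays. Of these 10 genes, listed by name, 9 had a probe set paired with exactly 1 gene symbol in the deposited table. That table held 10261 such genes, and every share of all genes below is over them. Notch4 was not analysed here. Of the arrays, 3 were labelled keratinocytes and 3 were labelled MEFs (mouse embryonic fibroblasts), and the labels number each group as biological replicates 1 to 3. The keratinocytes, the main cells of the epidermis, came from back skin at postnatal day 0 and were grown in a keratinocyte medium, and the sources used here do not give their strain. The MEFs came from E13.5 embryos after removal of the head and inner organs and were grown in serum-containing medium. The methods give C57BL/6J as their strain, while the isolation protocol names DR-4. No sample was treated. Beyond these strain names, which disagree for the MEFs, no allele or transgene is given for either group, so the genotype of the MEFs is not settled. Age, medium and cell type differ together between the groups, so their parts in a difference cannot be told apart.

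The labels were checked with Cdh1, which encodes the epithelial cadherin E-cadherin, and Vim, which encodes the mesenchymal filament protein vimentin. Values are deposited log2 signals, on which a difference of 1 is a doubling. Cdh1 stood at 3.33, 2.16 and 3.26 on the keratinocyte-labelled arrays and at 8.62, 8.59 and 8.73 on the MEF-labelled arrays. Vim stood at 11.93, 11.97 and 12.03 on the former and at 3.81, 3.92 and 3.78 on the latter. Both genes thus ran against the cell type labels. Whether labels or columns were exchanged was not tested, and an exchange would turn every direction given here. The basal keratins Krt5 and Krt14 were higher on the MEF-labelled arrays, as were all 7 keratinocyte markers looked at, of which 6 were above background on each of these arrays. The collagen genes Col1a1 and Col1a2 were higher on the keratinocyte-labelled arrays, as were all 7 fibroblast markers. Every direction below is therefore given for the arrays as labelled, and the MEF-labelled arrays are those with high Cdh1.

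Notch receptors are single-pass membrane proteins that are activated by Jagged and Delta-like ligands on a neighbouring cell. After ligand binding, an ADAM protease and then the γ-secretase complex cut the receptor, and its intracellular domain enters the nucleus, joins the DNA-binding protein RBPJ and a Mastermind co-activator, and turns on genes such as those of the HES and HEY repressors. In mouse epidermis, Notch signalling is known for driving basal cells towards differentiation, with Notch1 as a main receptor. In mesenchyme and vessel walls Notch2 and Notch3 are known receptors, the latter above all of pericytes and vascular smooth muscle.

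Of the 3 receptors measured, Notch1 and Notch3 were higher on the MEF-labelled arrays and Notch2 was higher on the keratinocyte-labelled arrays. Notch1, the receptor best known from the epidermis, had log2 signals of 7.00, 7.05 and 7.11 on the keratinocyte-labelled arrays and of 9.60, 9.52 and 9.69 on the MEF-labelled arrays. It was 5.86-fold higher on the latter, a log2 difference of -2.55 with a 95% interval of -2.76 to -2.34 (keratinocytes minus MEFs, adjusted p = 5.91e-08 from limma). The group means were 7.06 ± 0.06 (SD, n = 3) and 9.61 ± 0.08 (SD, n = 3), and the groups were far apart compared with this spread. In bulk samples such as these, fewer cells that express a gene and less of its RNA per cell cannot be told apart. Adjustment was by Benjamini-Hochberg over all 11288 probe sets tested, and a difference was called at an adjusted p under 0.05.

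Notch2 ran the other way and moved less. It had signals of 8.36, 8.36 and 8.24 on the keratinocyte-labelled arrays and of 7.83, 7.75 and 7.89 on the MEF-labelled arrays, with no overlap between the groups. The former were 1.41-fold higher, a log2 difference of 0.50 with an interval of 0.29 to 0.70 (adjusted p = 1.17e-03 from limma). Notch3 had signals of 6.28, 6.21 and 6.07 on the keratinocyte-labelled arrays and of 7.11, 6.88 and 7.13 on the MEF-labelled arrays. It was 1.80-fold higher on the MEF-labelled arrays, a log2 difference of -0.85 with an interval of -1.10 to -0.60 (adjusted p = 1.48e-04 from limma). Its probe set was above the array background on all 6 arrays, background being the 95th percentile over 10 probe sets of olfactory receptors, which lay at 5.49 to 5.92 on the keratinocyte-labelled arrays and at 6.05 to 6.58 on the MEF-labelled arrays.

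**Figure D1:**
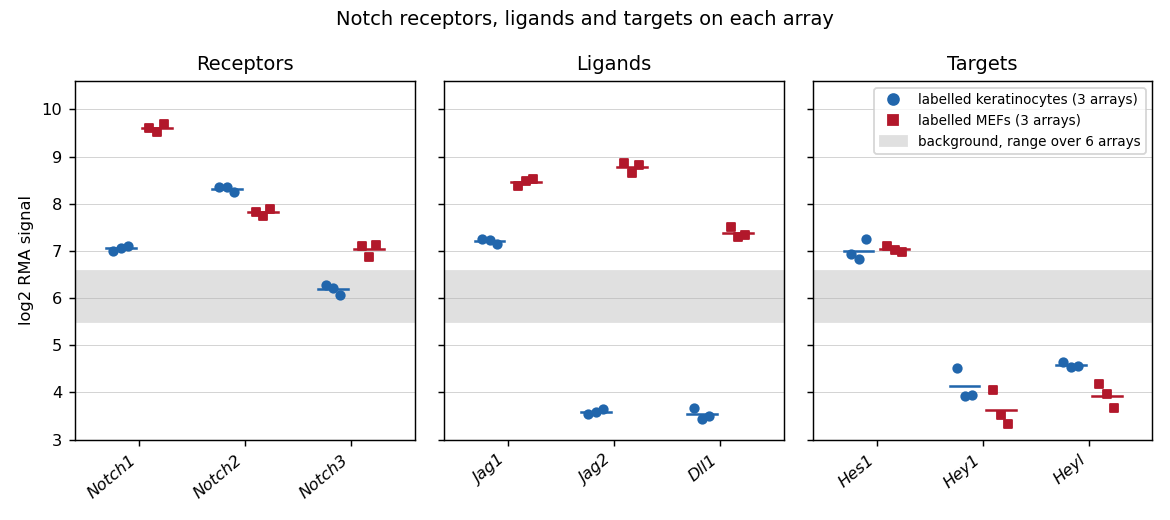
Log2 RMA signal (vertical axis) of the 9 measured genes, by role, drawn as 1 point per array with a line at each group's mean, over a grey band that spans the 6 olfactory receptor background levels. Notch1, Jag1, Jag2 and Dll1 lie higher on the 3 MEF-labelled arrays (squares) than on the 3 labelled keratinocytes (circles), Hes1 overlaps, and Hey1 and Heyl lie below the band on all arrays.

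The balance of Notch1 and Notch2 within an array does not depend on a constant shift between arrays. The log2 signal of Notch1 minus that of Notch2 was -1.37, -1.30 and -1.13 on the keratinocyte-labelled arrays and 1.78, 1.77 and 1.80 on the MEF-labelled arrays. This pair was chosen after the values were seen. The within-array value differed between the groups by -3.05, and the arrays of the groups did not overlap (two-sided exact permutation p = 0.1, the smallest that 3 arrays against 3 allow). The value shows an unequal change of the 2 receptors between the groups and not which of them is the more abundant, since the signals of different probe sets are not on a common scale.

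All 3 ligands were higher on the MEF-labelled arrays, where 41.7% of all genes were, and Jag2 and Dll1 were above background there alone. Jag2, a Jagged ligand, had log2 signals of 3.53, 3.58 and 3.65 on the keratinocyte-labelled arrays and of 8.86, 8.66 and 8.82 on the MEF-labelled arrays. It was above background on each of the latter and on none of the former, so the fold is a lower bound of 8.45, computed against the background level. The fitted log2 difference was -5.19 with an interval of -5.41 to -4.98 (adjusted p = 2.58e-09 from limma).

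Dll1, a Delta-like ligand known in the epidermis from clusters of basal cells, followed the same course. Its signals were 3.67, 3.44 and 3.49 on the keratinocyte-labelled arrays, none above background, and 7.51, 7.30 and 7.35 on the MEF-labelled arrays, all above it. The latter were at least 3.22-fold higher, with a fitted log2 difference of -3.85 and an interval of -4.09 to -3.61 (adjusted p = 1.46e-08 from limma). Jag1, the other Jagged ligand, was above background on all 6 arrays and therefore measured in both groups. Its signals of 7.24, 7.23 and 7.15 on the keratinocyte-labelled arrays lay below those of 8.37, 8.49 and 8.53 on the MEF-labelled arrays, a 2.38-fold difference (log2 difference -1.25, interval -1.46 to -1.05, adjusted p = 3.93e-06 from limma). The 2 Jagged genes thus moved in the same direction by unequal amounts. Within an array, Jag2 minus Jag1 was -3.71, -3.65 and -3.50 on the keratinocyte-labelled arrays and 0.49, 0.18 and 0.29 on the MEF-labelled arrays, a pair also chosen after the values were seen, and in the former the Jag2 signal is itself at background.

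The upstream sequences of Jag2, Dll1 and Notch1, the 3 genes of the family with the largest fitted differences in either direction, are shown. They are RefSeq promoters of build GRCm38.p6, taken as the 250 bases before an annotated start, and 7 of the 10 genes had an entry, with Hes1, Hey1 and Heyl having none. Capitals mark matches, on either strand, to the RBPJ core TGGGAA, to the E-box CAGGTG that ZEB and SNAIL repressors recognise, and to the E-box CACGTG of HES and HEY repressors. Jag2 lies at chr12:112929496-112929745 on the minus strand, Dll1 has entries at chr17:15376933-15377182 (start A) and chr17:15375824-15376073 (start B) on the minus strand, and Notch1 lies at chr2:26503823-26504072 on the minus strand.
Jag2: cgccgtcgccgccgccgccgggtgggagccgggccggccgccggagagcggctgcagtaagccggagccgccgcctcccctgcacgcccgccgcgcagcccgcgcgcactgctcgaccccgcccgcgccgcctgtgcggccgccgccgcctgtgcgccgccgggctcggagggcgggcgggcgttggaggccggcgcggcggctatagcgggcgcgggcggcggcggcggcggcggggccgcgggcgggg
Dll1 start A: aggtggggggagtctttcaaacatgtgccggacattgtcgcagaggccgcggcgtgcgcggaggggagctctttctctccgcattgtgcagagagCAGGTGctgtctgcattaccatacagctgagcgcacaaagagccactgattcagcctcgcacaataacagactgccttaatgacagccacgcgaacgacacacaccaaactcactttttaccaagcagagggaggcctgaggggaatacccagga
Dll1 start B: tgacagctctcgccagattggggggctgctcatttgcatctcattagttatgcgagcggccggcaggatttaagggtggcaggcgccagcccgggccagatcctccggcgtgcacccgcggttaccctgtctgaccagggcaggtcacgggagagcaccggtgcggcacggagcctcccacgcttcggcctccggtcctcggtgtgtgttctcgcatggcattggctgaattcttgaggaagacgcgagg
Notch1: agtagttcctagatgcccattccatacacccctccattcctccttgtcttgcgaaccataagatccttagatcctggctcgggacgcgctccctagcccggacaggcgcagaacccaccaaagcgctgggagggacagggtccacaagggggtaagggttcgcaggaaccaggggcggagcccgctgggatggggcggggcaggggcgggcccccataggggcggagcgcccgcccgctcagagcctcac
Of the 8 windows of the 7 genes, 0 held the RBPJ core, which 21.6% of all 32851 RefSeq promoter windows of this length hold. The E-box CAGGTG stood in 1 of them, Dll1 start A, beginning 155 bases before the start, against 17.2% of all windows, and CACGTG stood in 0, against 6.02%. The window of Jag2 was 87.2% G and C with 54 CpG dinucleotides, where the median over all windows was 52.4% with 6. A match is a string of letters and no evidence of binding, and a missing one says only that these letters are not in this window.

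None of the 3 target genes was called in the direction of the ligands, where 41.7% of all genes were. Only Hes1 among them was above background on any array. Hes1, a repressor gene switched on by Notch in many cell types, had log2 signals of 6.93, 6.83 and 7.26 on the keratinocyte-labelled arrays and of 7.11, 7.01 and 6.98 on the MEF-labelled arrays. The groups overlapped, and the log2 difference was -0.03 with an interval of -0.31 to 0.26 (adjusted p = 0.846 from limma), which leaves room for a change of up to that size in either direction. Its sign turned with the scaling of the arrays, to 0.10 with each array centred on its median. Hes1 was above background on all 6 arrays.

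Hey1 and Heyl, which encode related repressors known from vessels and mesenchyme, were above background on no array, so no fold is given for them. Hey1 had signals of 4.51, 3.92 and 3.95 on the keratinocyte-labelled arrays and of 4.04, 3.52 and 3.33 on the MEF-labelled arrays. These groups overlapped, and the log2 difference of 0.50 did not pass (interval -0.00 to 0.99, adjusted p = 0.0662 from limma). Without MEF replicate 1 it was 0.70 and passed (adjusted p = 0.0130 from limma). Heyl had signals of 4.64, 4.54 and 4.56 against 4.18, 3.96 and 3.66, with no overlap, and was higher on the keratinocyte-labelled arrays by 0.65 (interval 0.34 to 0.96, adjusted p = 2.44e-03 from limma). The background level used here is a rough one and a gene under it need not be silent. On MEF replicates 1 and 3 it lay at 6.53 and 6.58, above the medians of all deposited probe sets on these arrays, 6.25 and 6.31. On the other arrays it lay below the median. Every lower bound and every statement on background given here depends on this level.

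Across the 9 measured genes, 5 were higher on the MEF-labelled arrays, 2 were higher on the keratinocyte-labelled arrays and 2 did not pass. Over all 10261 genes, 74.5% passed, 41.7% with higher values on the MEF-labelled arrays and 32.9% with higher values on the keratinocyte-labelled arrays, so that the share of the family that passed, 77.8%, lies near the share of all genes and says little about the family. The groups did not overlap for 7 of the 9, against 78.4% of all genes. A difference of at least 1 on the log2 scale that also passed was seen for 4 of the 9, Jag2, Dll1, Notch1 and Jag1, against 28.4% of all genes. The median absolute difference of the 9 was 0.85 and that of all genes 0.57, and the median signed difference was -0.85 against -0.12. Centring each array on its median moved the median over all probe sets from -0.12 to about 0, a shift that left all 5 genes higher on the MEF-labelled arrays on the same side.

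**Figure D2:**
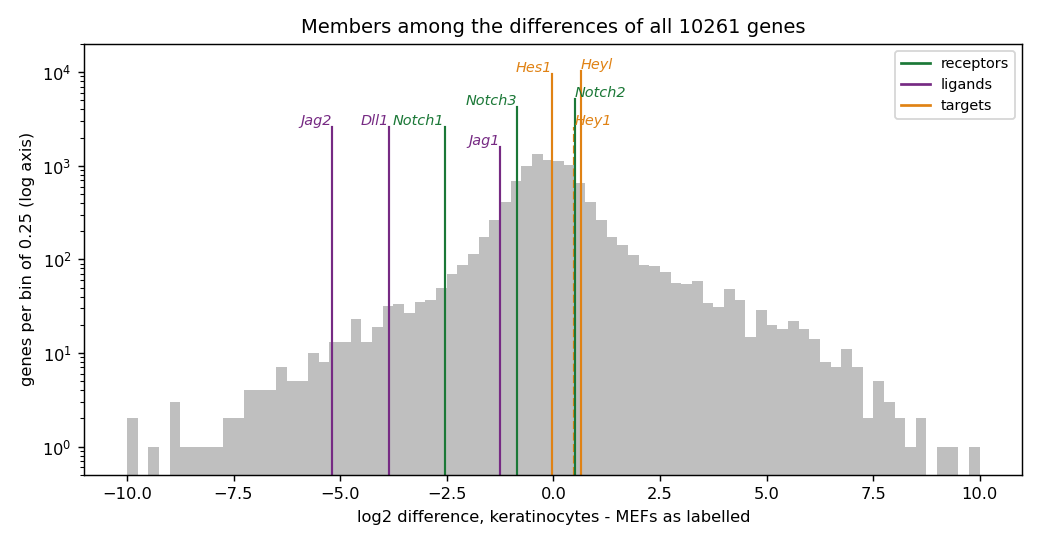
Number of genes (vertical axis, log scale) by log2 difference between the keratinocyte-labelled arrays and the MEF-labelled arrays (horizontal axis, bins of 0.25) for all 10261 genes, with a line at the value of each of the 9 measured genes. The fitted differences of Jag2 at -5.19, Dll1 at -3.85 and Notch1 at -2.55 lie in the left tail, the first 2 against signals at background, Hes1 at -0.03 lies in the centre, and Notch2 and Hey1 share a value of 0.50.

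The other genes of the pathway were taken from lists by role. Of 58 listed, 41 were measured, of which 17 were higher on the keratinocyte-labelled arrays, 18 were higher on the MEF-labelled arrays and 6 did not pass, and 10 were above background on no array. That is 85.4% past the threshold, against 74.5% of all genes. Their median difference was -0.11, against -0.12 over all genes.

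Of the feedback and further HES genes, Nrarp moved most. Nrarp encodes a small ankyrin-repeat protein that Notch switches on and that restrains the Notch complex in turn. Its log2 signals were 2.91, 3.28 and 2.86 on the keratinocyte-labelled arrays, none above background, and 7.83, 7.68 and 7.53 on the MEF-labelled arrays, all above it. The latter were at least 3.94-fold higher, with a fitted log2 difference of -4.66 (interval -4.97 to -4.34, adjusted p = 2.21e-08 from limma). Nrarp thus ran in the direction of the ligands and Notch1, while Hes1, Hes5, Hey1 and Heyl were not called in that direction. Of those, only Hes1 was above background on any array. Whether Notch signalling differed between the groups was not tested. Within an array, Nrarp minus Hes1 was -4.02, -3.54 and -4.40 on the keratinocyte-labelled arrays and 0.72, 0.66 and 0.55 on the MEF-labelled arrays, without overlap (two-sided exact permutation p = 0.1), a pair chosen after the values were seen, and in the former the Nrarp signal is itself at background. Of its list, 2 of the 3 measured genes were higher on the MEF-labelled arrays, where 41.7% of all genes were. Hes6 was so by less than 1, and Hes5 did not pass, with a difference of 0.08 (adjusted p = 0.602 from limma). Neither Hes5 nor Hes6 was above background on any array.

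The nuclear complex held genes of both directions. Rbpj, which encodes the DNA-binding partner of all Notch receptors, had signals of 8.26, 8.09 and 8.22 on the keratinocyte-labelled arrays and of 6.27, 6.46 and 6.39 on the MEF-labelled arrays. It was 3.53-fold higher on the former (log2 difference 1.82, interval 1.60 to 2.04, adjusted p = 6.56e-07 from limma), although on the MEF-labelled arrays 1 of 3 values was above background and the fold is read partly against background. Of 12 measured genes of this list, 6 were higher on the keratinocyte-labelled arrays, 3 were higher on the MEF-labelled arrays and 3 did not pass, a share past the threshold of 75%, near the 74.5% of all genes. Tle2, a Groucho-type co-repressor gene, had signals of 4.97, 4.82 and 4.64 on the keratinocyte-labelled arrays against 3.45, 3.14 and 3.46, and was above background on no array (adjusted p = 1.48e-05 from limma). The 3 that ran against the rest were the Mastermind co-activator genes Maml2, with a difference of -0.63, and Maml3, with -0.69, the latter above background on no array, and Snw1, a transcription cofactor gene, with -0.51. The remaining Mastermind gene, Maml1, was 0.56 higher on the keratinocyte-labelled arrays, a value named after it was seen.

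Among genes of receptor cleavage no difference reached 1, and their median absolute difference was 0.43, against 0.57 over all genes. Of 9 measured, 6 were higher on the keratinocyte-labelled arrays, 2 were higher on the MEF-labelled arrays and 1 did not pass, so that 88.9% passed, against 74.5% of all genes. Those higher on the MEF-labelled arrays were Adam17, a sheddase gene, at -0.37 (adjusted p = 8.12e-03 from limma), and Aph1b, a γ-secretase subunit gene, at -0.43 (adjusted p = 8.09e-03 from limma). Aph1b has a near-identical paralog, Aph1c, whose probe set may share signal with it. The γ-secretase genes Psenen and Ncstn were 1.91-fold and 1.60-fold higher on the keratinocyte-labelled arrays, and Adam10, the gene of the protease best known for cutting Notch, was 1.29-fold higher there, all 3 named after their values were seen.

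Of the sugar-modifying enzymes of Notch, 3 of 4 measured genes were higher on the MEF-labelled arrays, where 41.7% of all genes were, and Rfng and Poglut1 among them differed by -0.56 and -0.51, both named after their values were seen. Lfng, which encodes lunatic fringe, an enzyme that extends O-fucose on the receptors and shifts which ligands they answer to, had signals of 4.73, 4.87 and 5.19 on the keratinocyte-labelled arrays, none above background, and of 7.19, 6.89 and 6.99 on the MEF-labelled arrays. The latter were at least 2.50-fold higher (log2 difference -2.10, interval -2.41 to -1.78, adjusted p = 2.56e-06 from limma). Pofut1, which adds that fucose, ran against its list by 0.22 (adjusted p = 0.0404 from limma), and lost its call without any 1 of the 6 arrays, with an adjusted p of 0.0541 to 0.135. The promoter of Lfng, at chr5:140607091-140607340 on the plus strand of GRCm38.p6, is shown because it holds both an RBPJ core, as TTCCCA and TGGGAA, and the E-box CACGTG. The second core overlaps the E-box, so that their capitals run together.
Lfng: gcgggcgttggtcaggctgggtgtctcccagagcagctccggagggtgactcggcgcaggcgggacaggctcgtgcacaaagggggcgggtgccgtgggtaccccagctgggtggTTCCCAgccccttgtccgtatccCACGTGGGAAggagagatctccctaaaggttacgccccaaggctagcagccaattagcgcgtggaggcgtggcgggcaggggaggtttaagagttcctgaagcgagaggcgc
The first core begins 135 bases and the E-box 112 bases before the start. Of all RefSeq windows, 21.6% hold the core and 6.02% the E-box, and Lfng was chosen for display after the matches were seen.

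Among the atypical ligands, which lack the domain that activates Notch receptors, Dlk1 and Dlk2 ran in opposite directions. Dlk1, an imprinted gene of embryonic mesenchyme, had signals of 8.67, 8.95 and 8.88 on the keratinocyte-labelled arrays and of 4.60, 3.88 and 4.36 on the MEF-labelled arrays, where it was at background. The former were at least 5.45-fold higher (log2 difference 4.55, interval 4.14 to 4.96, adjusted p = 1.10e-07 from limma). Dlk2 had signals of 4.40, 4.89 and 4.69, none above background, against 6.72, 6.46 and 6.65, at least 1.88-fold higher on the MEF-labelled arrays (log2 difference -1.95, adjusted p = 4.03e-06 from limma). The canonical ligand genes Dll3 and Dll4 were not analysed here.

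Of the ubiquitin ligases and endocytic regulators, 6 of 10 measured genes were higher on the MEF-labelled arrays, 3 were higher on the keratinocyte-labelled arrays and 1, Mib1, did not pass, against 41.7% and 32.9% of all genes in these directions. Of these 10, 4 were above background on no array. Dtx4, a Deltex-type ligase gene, had signals of 5.61, 5.57 and 5.65 on the keratinocyte-labelled arrays, with 1 of 3 values above background, and of 8.12, 8.19 and 7.89 on the MEF-labelled arrays, a 5.49-fold difference (log2 difference -2.46, adjusted p = 1.63e-07 from limma). Neurl1b, a Neuralized-type ligase gene, was also higher there, with a log2 difference of -1.33 in its brighter probe set and of -1.04 in the other, neither above background on any array. The genes against the rest were Numbl, a Numb-like endocytic adaptor gene, Dtx3, a further Deltex-type gene, and Mib2, a ligase gene of the Mind bomb type. Numbl was 2.42-fold higher on the keratinocyte-labelled arrays (adjusted p = 2.73e-05 from limma), Dtx3 was higher there by a factor of at least 1.56 (adjusted p = 6.03e-05 from limma), and Mib2 differed by 0.37 with no MEF-labelled array above background (adjusted p = 6.38e-03 from limma).

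**Figure D3:**
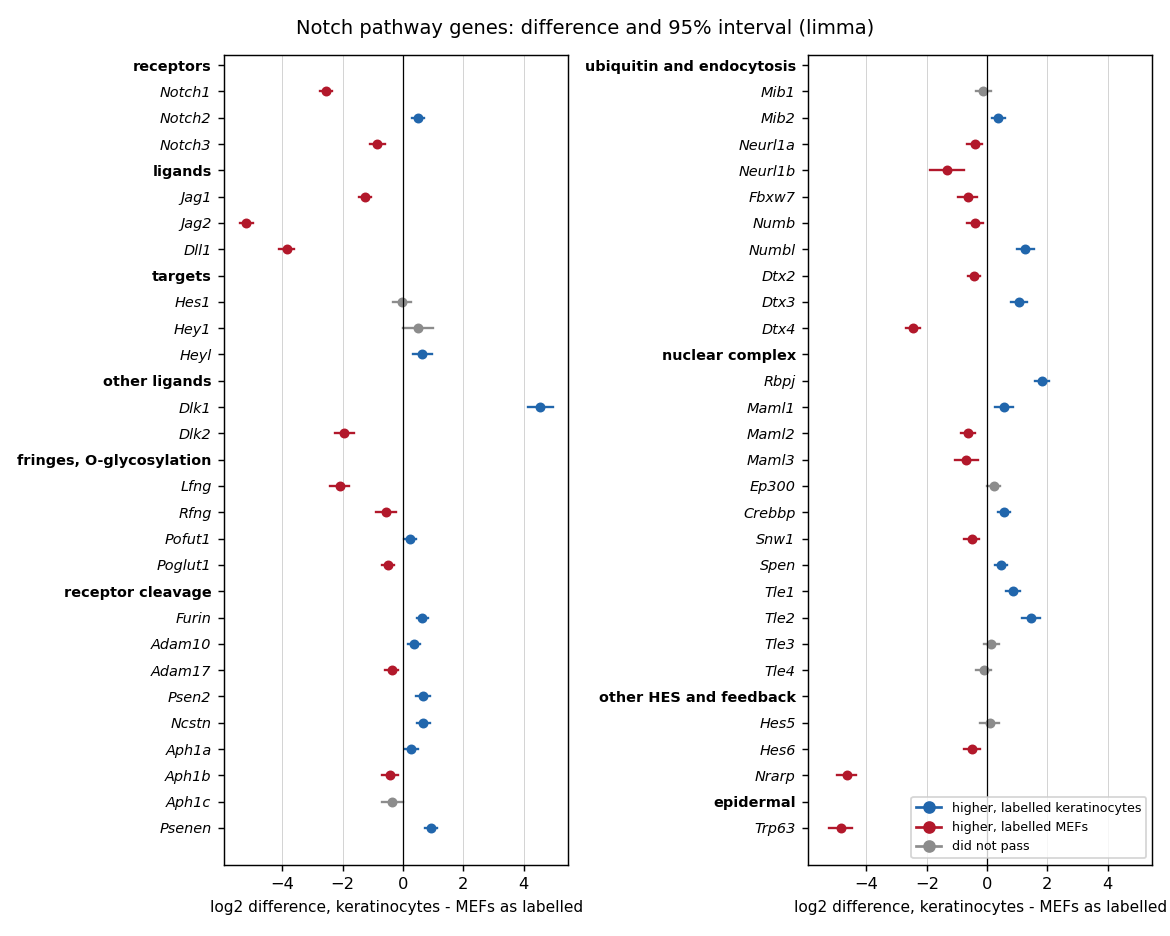
Log2 difference between the keratinocyte-labelled arrays and the MEF-labelled arrays (horizontal axis) with its 95% interval from limma, for the 9 measured genes of the family and 41 other pathway genes grouped by role, with blue and red for the direction of those that passed and grey for those that did not. Jag2, Trp63 and Nrarp extend furthest to the left, Dlk1 and Rbpj to the right, and the cleavage genes stay within 1 of zero.

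**Figure D4:**
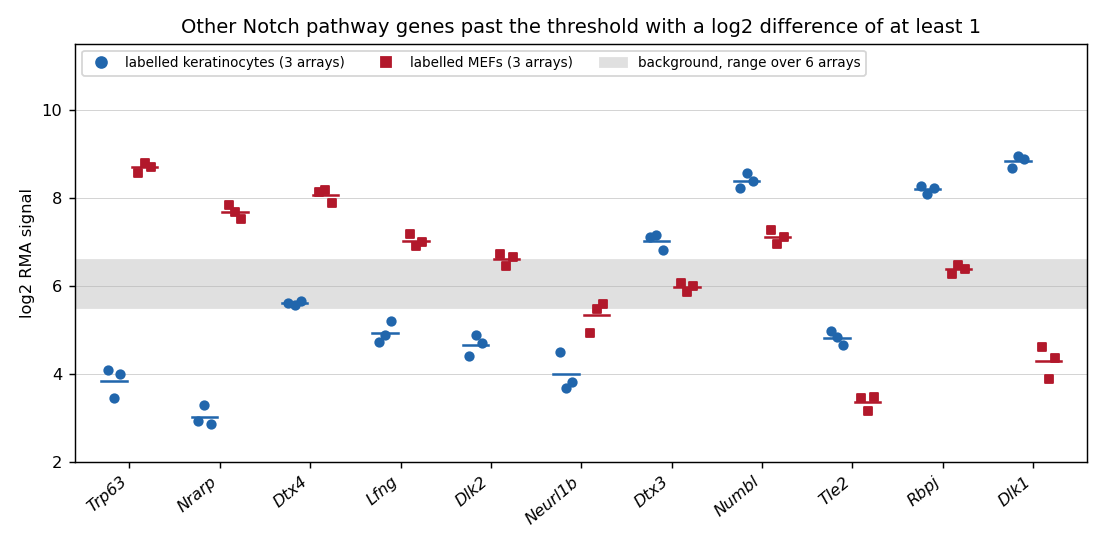
Log2 RMA signal (vertical axis) of the 11 other pathway genes that passed with a difference of at least 1, ordered by the difference, drawn as 1 point per array with a line at each group's mean, over the grey band of background levels. From Trp63 to Neurl1b the MEF-labelled arrays (squares) are higher, and from Dtx3 to Dlk1 the keratinocyte-labelled arrays (circles).

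Of the epidermal genes linked to Notch that were listed, 1 was measured. Trp63, the master regulator of stratified epithelium, which acts against Notch in basal cells, had signals of 4.08, 3.45 and 3.99 on the keratinocyte-labelled arrays and of 8.57, 8.79 and 8.71 on the MEF-labelled arrays, at least 7.94-fold higher on the latter (adjusted p = 5.11e-08 from limma). It ran in the direction of Cdh1 and of the ligands.

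The genes closest in pattern were found for Jag2, Dll1 and Notch1, by the Euclidean distance over the 6 arrays of log2 signals centred on each gene's mean. For Jag2 they were Lgals7, the galectin-7 gene of stratified epithelia, at a distance of 0.19 and the Wnt ligand genes Wnt7a at 0.24 and Wnt7b at 0.30, with differences of -5.07, -5.09 and -5.24. For Dll1 they were Fam83g at 0.22, Tmem54 at 0.23 and Il17re at 0.24, and for Notch1 Plk3 at 0.13, Dglucy at 0.14 and Arhgef16 at 0.16. The 6 arrays form 2 clusters, so that this distance mostly reads the size of the group difference.

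Marker lists of other cell types also differed between the groups. Of 7 smooth muscle and pericyte markers, the cells best known for Notch3, 6 were measured. On the keratinocyte-labelled arrays 5 were higher, opposite to Notch3, among them Tagln by 7.62 and Cnn1 by 6.06. There 32.9% of all genes and all 7 fibroblast markers were higher too, and whether these 5 read such cells or fibroblasts was not tested. The remaining measured marker, Mcam, was above background on all 6 arrays and 2.38-fold higher on the MEF-labelled arrays, in the direction of Notch3 (log2 difference -1.25, adjusted p = 4.49e-06 from limma). The sum of the log2 signals of all 6 was 53.3 to 54.3 on the keratinocyte-labelled arrays and 29.4 to 30.2 on the MEF-labelled arrays. Of 7 endothelial markers, 1 was measured, Kdr, at 3.31 to 3.62 and 4.80 to 5.06, above background on no array, while Pecam1 and Cdh5 were not analysed here. Of the 5 skeletal muscle markers 2 were measured. Des was 3.87 higher on the keratinocyte-labelled arrays and above background on 1 array, and Ckm did not pass, with a difference of 0.20 (adjusted p = 0.128 from limma). Of the 4 leukocyte markers 1 was measured, Cd68, at 4.39 to 5.00 and 8.43 to 8.68, at least 7.28-fold higher on the MEF-labelled arrays. None of the 5 melanocyte or 4 Schwann cell markers was measured. The part of other cells in the differences of the Notch genes was not tested.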

How the data were processed

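RNA of 3 arrays labelled keratinocytes and 3 labelled MEFs was compared, with groups and replicate numbers taken from the sample titles. The authors deposited 1 table of log2 values for 15648 probe sets. The methods name RMA with oligo (version 1.46.0 in the submitters' processing notes), and that the deposited values are its output was inferred from their range. RMA forces arrays onto a shared distribution and compresses dim signals. Neither the genome build nor the choice of probe sets is given in the sources used here. No column was left unused.

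Probe sets were named from the platform table: 11288 had 1 symbol, 645 several and 3715 no entry. Of the 11288, 11274 were matched by gene identifier to a RefSeq gene table and took its symbol. Where a gene had several, the brightest stood for it. The 11288 entered limma 3.58.1 (lmFit, eBayes, R 4.3.3), with no block, and the threshold was an adjusted p of 0.05 (Benjamini-Hochberg). The fit was also run on simulated data, and no result given here rests on that run. Background was set per array, as the 95th percentile over 10 probe sets of olfactory receptors. A fold against a group with no array above it is a lower bound, taken against the higher of background and signal. Python 3.11.15 and matplotlib 3.10.9 drew the plots.

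The family and the lists were chosen with earlier results of these data known. Named are all measured genes of the family, up to 4 genes of each pathway list that passed with a log2 difference of at least 1, those that passed against their list, the 2 most different markers per list, and the 3 genes nearest in pattern to each of 3 of them. Further genes are said to be named after their values were seen. Alternatives to the model were a replicate block, leaving out each array, array weights, robust eBayes with an intensity trend and Student's t-test. The methods name that t-test for comparisons with a control, and limma for arrays. Alternatives to the values were centring on array medians, z-scores, quantile normalization, 2 filters against dim probe sets, averaging the probe sets of a gene, fitting also the unnamed probe sets, and requiring a log2 difference of 1. The number of arrays limits the precision. The labels call the replicates biological without saying from which animals, so p-values measure the spread between these arrays.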

Additional observations from a re-analysis of the deposited data

How the results depend on the processing

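All 5 genes of the family that were higher on the MEF-labelled arrays, and Notch2 and Heyl, kept direction and call in every alternative in which they were tested, apart from a minimum difference of 1, under which 4 remained higher on the MEF-labelled arrays (not Notch3) and 0 on the keratinocyte-labelled arrays. Either filter on dim probe sets removed Hey1 and Heyl from the fit and left 1 such gene, Notch2. With that minimum, 5 other pathway genes were higher on the keratinocyte-labelled arrays and 6 on the MEF-labelled arrays. Hes1, which did not pass, changed sign: to 0.10 with median centring, 0.0847 with quantile normalization, 0.00624 with z-scores (in SD units), 0.0142 with array weights and between -0.155 and 0.0619 with an array left out. Mib1 and Tle4, which did not pass, turned to 0.00651 and 0.0148 with median centring, and Hes5 ranged from -0.00503 to 0.20 with an array left out. The cause was not tested. With median centring and with array weights Hey1 passed (adjusted p = 0.0372 and 0.0389 from limma). Of 679 alternative values of the 41 other pathway genes, 13 lost and 9 gained a call.

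Same-numbered arrays of the groups did not deviate together, with Pearson's r of their deviations over probe sets at -0.23, -0.21 and -0.03, so the numbers were not taken to pair them. Between arrays of unlike number r ran from -0.03 to 0.21. It was 0.21 for keratinocyte replicate 1 with MEF replicate 2, and for keratinocyte replicate 2 with MEF replicate 1. A block by such pairs was not tested. With the replicate block, Hey1 passed (adjusted p = 6.81e-03 from limma), which made 3 genes of the family higher on the keratinocyte-labelled arrays and left 5 higher on the MEF-labelled arrays, and the calls of Pofut1 and Aph1a were lost.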
